A study of Mus musculus with 20 samples.

Results

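The Slco genes encode the organic anion transporting polypeptides, and 8 of them were examined in the kidney and liver of male C57BL/6 mice. Slco1a1, Slco1a4, Slco1a6, Slco1b2, Slco2a1, Slco2b1, Slco3a1 and Slco4c1 were taken by gene name. They are part of the 15 rows whose name starts with Slco among the 54532 genes of the count table. Earlier results of these data were known when these 8 were chosen. The libraries fell into 4 groups of 5: kidney labelled Lxrα-/-, kidney labelled wild type, liver labelled Lxrα-/- and liver labelled wild type. KO and WT stand for those labels below. KO mice are numbered 1 to 5 and WT mice 1, 3, 4, 5 and 6. A kidney and a liver with the same label and number were taken to come from 1 mouse, 10 mice in all. The main fits held no term for the mouse. No other allele, agent, age, diet or littermate status is given in the labels, nor is the deleted part of the gene.

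These transporters are sodium-independent carriers of the plasma membrane that bring large amphipathic anions into cells. Bile acids, steroid and thyroid hormone conjugates, prostaglandins, bilirubin conjugates and many drugs are among their cargoes. In hepatocytes they work at the sinusoidal face, together with the sodium-dependent bile acid carrier Slc10a1, and in the renal proximal tubule they share anion uptake with the Slc22 carriers. Lxrα is the oxysterol-activated nuclear receptor that Nr1h3 encodes. In mice, Slco1a1 is known as an androgen-dependent gene that is higher in males, and Slco1a4 as a gene that is higher in female liver.

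Slco1c1 and Slco1a5, which are not members, flank a group of 4 members on mm10 chromosome 6. In order of position they are Slco1b2 (ENSMUSG00000030236, 141629518 to 141686646, plus strand), Slco1a4 (ENSMUSG00000030237, 141805440 to 141856199, minus strand), Slco1a1 (ENSMUSG00000041698, 141907282 to 141946962, minus strand) and Slco1a6 (ENSMUSG00000079262, 142085761 to 142208521, minus strand). The other members stand apart. Slco3a1 (ENSMUSG00000025790, 74275419 to 74554780) and Slco2b1 (ENSMUSG00000030737, 99657804 to 99711340) lie on the minus strand of chromosome 7. Slco2a1 (ENSMUSG00000032548, 102988712 to 103096002) lies on the plus strand of chromosome 9, and Slco4c1 (ENSMUSG00000040693, 96816270 to 96872171) on the minus strand of chromosome 1. All 8 are annotated as protein-coding, and each value is the count over the whole gene.

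The promoters of the neighbours on chromosome 6 are shown because these genes have opposite tissue patterns and hold the 1 member called by genotype, Slco1a1 in kidney. The windows are RefSeq sequence of GRCm38.p6, from 250 bases before to 50 after the annotated start, written 5′ to 3′ along the gene. Capitals mark every match, on either strand, to GTTAAT (one arm of the palindrome read by the hepatocyte factor HNF1), TTCNNNGAA (the STAT core) or AGGTCA (the hexamer read by many nuclear receptors). The windows are chr6:141946913-141947212 for Slco1a1, chr6:141856171-141856470 for Slco1a4 and chr6:142186100-142186399 for Slco1a6, all on the minus strand, and chr6:141629268-141629567 for Slco1b2 on the plus strand.
Slco1a1: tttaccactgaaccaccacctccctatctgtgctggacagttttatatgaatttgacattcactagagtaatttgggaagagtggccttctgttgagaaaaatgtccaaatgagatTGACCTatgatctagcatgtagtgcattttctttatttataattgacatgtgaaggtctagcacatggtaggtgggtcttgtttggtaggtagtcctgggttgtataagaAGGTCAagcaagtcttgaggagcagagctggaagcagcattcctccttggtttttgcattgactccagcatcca
Slco1a4: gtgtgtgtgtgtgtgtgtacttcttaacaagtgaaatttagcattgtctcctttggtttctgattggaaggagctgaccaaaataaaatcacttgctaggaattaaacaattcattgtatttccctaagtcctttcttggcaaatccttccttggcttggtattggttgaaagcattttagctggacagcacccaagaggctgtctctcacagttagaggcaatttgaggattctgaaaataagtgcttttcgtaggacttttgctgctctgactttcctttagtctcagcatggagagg
Slco1a6: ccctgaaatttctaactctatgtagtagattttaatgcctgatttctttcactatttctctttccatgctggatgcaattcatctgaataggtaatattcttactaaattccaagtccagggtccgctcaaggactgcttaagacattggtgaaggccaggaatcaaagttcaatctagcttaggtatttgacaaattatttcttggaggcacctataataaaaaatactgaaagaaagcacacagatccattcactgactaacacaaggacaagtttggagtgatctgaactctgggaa
Slco1b2: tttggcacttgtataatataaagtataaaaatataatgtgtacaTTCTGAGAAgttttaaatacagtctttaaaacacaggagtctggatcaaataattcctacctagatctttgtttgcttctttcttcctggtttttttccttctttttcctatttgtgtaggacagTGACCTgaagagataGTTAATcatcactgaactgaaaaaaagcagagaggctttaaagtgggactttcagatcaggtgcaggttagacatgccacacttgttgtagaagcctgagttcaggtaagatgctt

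Slco1a1 held AGGTCA at position -24 and its reverse complement TGACCT at -134, counted to the first base of the match from the start site. Slco1b2 held GTTAAT at -66, TGACCT at -81 and the STAT core at -206. None of the 3 motifs matched in the windows of Slco1a4 and Slco1a6. Of 32851 such windows over 27025 genes, 7.1% held GTTAAT, 8.3% the STAT core and 16.3% AGGTCA, so the matches are a description of these letters. The RefSeq start of Slco1a6 lies inside the gene span given in the count table.

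The coding sequences of the 3 Slco1a members are close relatives. Slco1a1 was 86.6% identical to Slco1a4 and 84.0% to Slco1a6, and Slco1a4 was 85.0% identical to Slco1a6, over the longest open reading frame of a GENCODE M21 transcript. Every other pair of members lay between 57.1% and 63.8%. Long identical stretches were few: 33 of the 5371 windows of 100 bases in the Slco1a1 transcripts, or 0.614%, also occurred in another gene, against 0.64% for Slco1a4 and 1.59% for Slco1a6. Slco2b1 shares 471 of its 5958 exonic bases (7.91%) with Gm15635 on the opposite strand, and the use of strand in counting is not given in the sources used here. Reads from that stretch cannot be assigned with certainty.

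Total counts were 23421561 to 35376342 per library. Levels are CPM, counts scaled for library size with a TMM factor over all 20 libraries, and genes are compared with each other only as FPKM, which is that CPM per kilobase of gene. Fold changes are log2 of KO over WT with the standard error (SE), and a call means an adjusted p below 0.05 in edgeR's quasi-likelihood test, adjusted by Benjamini and Hochberg over all genes tested. WT kidney 3 had 50.8% of its counts on mitochondrially encoded genes and WT kidney 1 had 7.21%, against 12.6 to 21.1% in the other 8 kidneys. The targeted gene went against the label: Nr1h3 was higher in KO, at 79.6 to 130 CPM in KO kidney against 38.2 to 43.9 in WT kidney and at 178 to 240 CPM in KO liver against 105 to 150 in WT liver. A count over the whole gene does not show which exons were read, so the directions below rest on the labels. The tissue labels fitted Alb, the main hepatocyte secretory product, at 36260 to 70740 CPM in KO liver and 81380 to 111700 in WT liver, against at most 5.96 CPM in any kidney. They also fitted Lrp2, the proximal tubule endocytic receptor, at 589.5 CPM or more in every kidney and at most 3.22 in any liver.

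Slco1a1, a carrier of bile acids and steroid conjugates in hepatocytes and proximal tubule, was the only member called by genotype in kidney. KO kidneys 1 to 5 had 422, 154, 304, 429.5 and 344 CPM, against 84.7, 38.1, 102, 14.9 and 102 CPM in WT kidneys 1, 3, 4, 5 and 6. The lowest KO kidney, number 2, lay above the highest WT kidney, and the WT kidneys themselves spread widely, with number 5 far below the rest. The mean was 331 ± 112 CPM in KO and 68.4 ± 39.7 CPM in WT (SD, n = 5 each), a log2 fold change of 2.25 (SE 0.46, 95% interval 1.26 to 3.24, edgeR adjusted p = 0.0261). Leaving out KO kidney 1, 3, 4 or 5 ended this call, with edgeR adjusted p values of 0.0560 to 0.0784, while the log2 fold change stayed between 1.99 and 2.45 without any single kidney. Without WT kidneys 1 and 3, whose mitochondrial shares stand apart, it was 2.15 at an edgeR adjusted p of 0.0486.

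In liver, the same gene showed no such separation. KO livers 1 to 5 had 499.7, 556, 563, 336 and 185 CPM of Slco1a1, against 428, 367, 552, 212 and 514 CPM in WT livers. The groups overlapped over nearly their whole range, with KO liver 5 and WT liver 5 at the bottom. The log2 fold change was 0.04 (SE 0.31, 95% interval -0.63 to 0.71, edgeR adjusted p = 0.964). Without KO livers 4 and 5 the log2 fold change was 0.39 at an edgeR adjusted p of 0.484. The kidney effect exceeded the liver effect by 2.23 (SE 0.58). In the main fit, which holds no term for the mouse, this difference missed the threshold at an edgeR adjusted p of 0.0589. With the mouse as a replicate block the difference was 2.49 at an edgeR adjusted p of 0.0212. It was called in 4 of 11 other settings, that block among them. Without WT kidneys 1 and 3 the difference was 2.14 at an edgeR adjusted p of 0.103. Without KO livers 4 and 5 the difference was 1.91 at an edgeR adjusted p of 0.185.

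**Figure D1:**
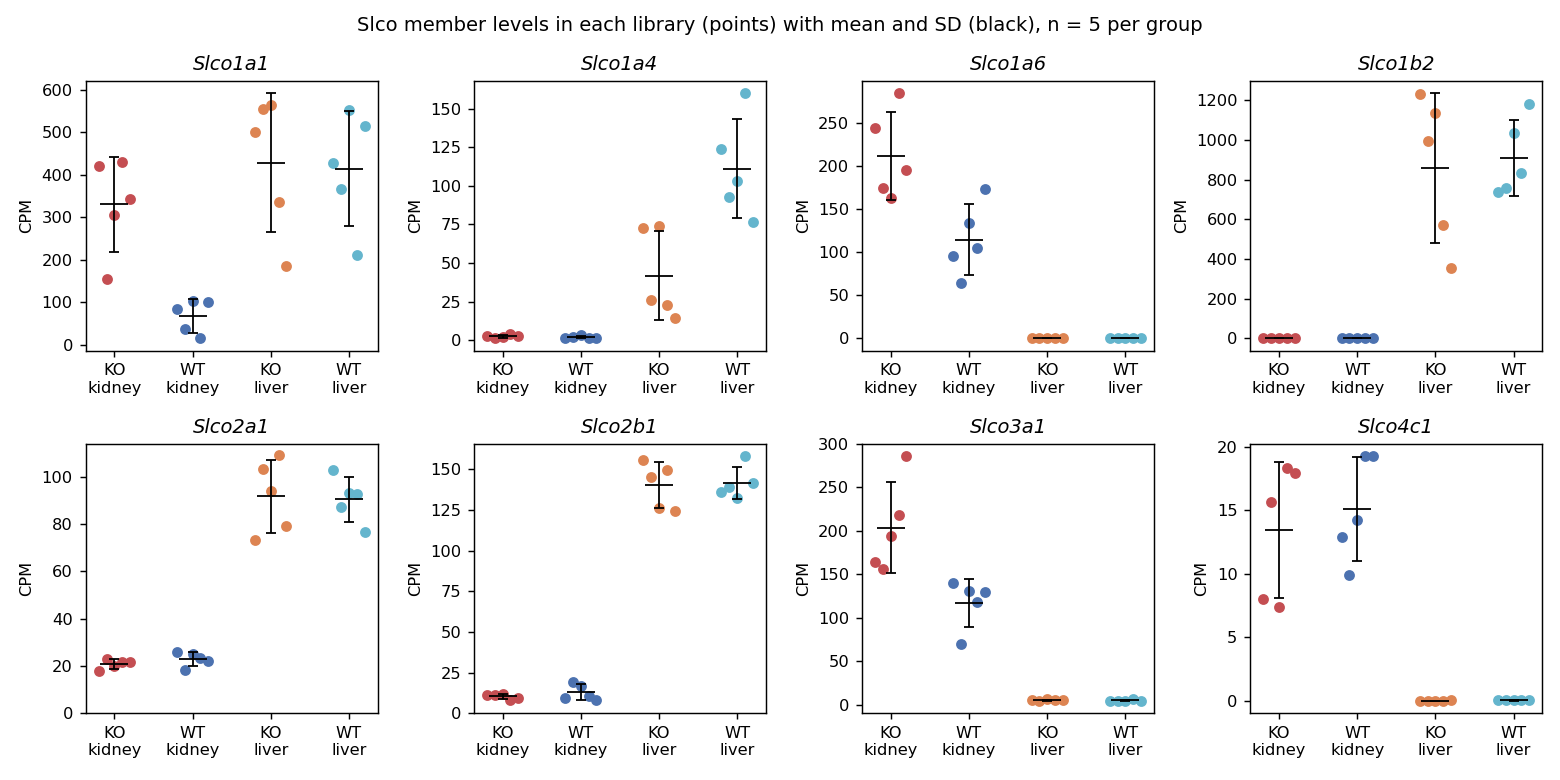
Each panel plots 1 member in CPM on its own linear axis, with a point per library and black lines for the mean and SD of the 5 libraries of a group. Slco1a1 in KO kidney (154 to 429.5 CPM) stands apart from WT kidney (14.9 to 102 CPM), and Slco1a4 in KO liver (14.1 to 73.9 CPM) lies below WT liver (76.4 to 160 CPM).

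Slco1a4 carries digoxin and other steroids and is also known from the blood-brain barrier. KO livers 1 to 5 had 72.5, 25.7, 73.9, 22.9 and 14.1 CPM, against 124, 92.8, 103, 160 and 76.4 CPM in WT livers. All KO livers lay under all WT livers, though KO livers 1 and 3 came within a few CPM of WT liver 6. Its mean was 41.8 ± 29.0 CPM in KO and 111 ± 32.2 CPM in WT (SD, n = 5 each), a log2 fold change of -1.41 (SE 0.41, 95% interval -2.3 to -0.52). It missed the threshold, with an edgeR adjusted p of 0.0649, and passed it in 6 of 11 other settings; over all 11 the adjusted p ran from 0.00936 to 0.156. Without KO livers 4 and 5 the log2 fold change was -0.94 at an edgeR adjusted p of 0.156. In kidney the gene was low and overlapped, at 1.67 to 4.13 CPM in KO and 1.29 to 3.30 CPM in WT (log2 fold change 0.39, SE 0.33, edgeR adjusted p = 0.497). The difference between the tissues was 1.84 (SE 0.55, edgeR adjusted p = 0.104).

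Slco1a6, a kidney member whose cargoes are little described, stood at 243, 174, 163, 284 and 195 CPM in KO kidneys 1 to 5, against 95.1, 64.3, 134, 105 and 173 CPM in WT kidneys 1, 3, 4, 5 and 6. Of the 5 KO kidneys, 4 lay above every WT kidney, and KO kidney 3 lay between WT kidneys 4 and 6. The log2 fold change was 0.87 (SE 0.26, 95% interval 0.31 to 1.42, edgeR adjusted p = 0.101), which is not called. Without WT kidney 6 it was called, at an edgeR adjusted p of 0.0333, and DESeq2 gave an adjusted p of 0.0206. It was called in 4 of 10 other settings. Without WT kidneys 1 and 3 the log2 fold change was 0.60 at an edgeR adjusted p of 0.14. In liver the gene was close to 0, with 3 counts over the 5 KO livers and none over the 5 WT livers.

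Slco3a1, a widely expressed carrier of prostaglandins and thyroxine in humans, stood at 164, 157, 194, 218 and 286 CPM in KO kidneys, against 139.5, 70.0, 131, 118 and 129 CPM in WT kidneys. The groups did not overlap, and KO kidneys 1 and 2 lay nearest to WT kidney 1. The log2 fold change was 0.76 (SE 0.22, 95% interval 0.28 to 1.24, edgeR adjusted p = 0.0933), again not called, and DESeq2 gave an adjusted p of 0.0159. It was called in 3 of 11 other settings. Without WT kidneys 1 and 3 the log2 fold change was 0.66 at an edgeR adjusted p of 0.0674. In liver Slco3a1 was low and overlapping, at 4.70 to 6.15 CPM in KO and 4.18 to 6.17 CPM in WT (0.09, SE 0.15, edgeR adjusted p = 0.803).

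Slco1b2 is the mouse liver carrier that stands for the human OATP1B pair and takes up bilirubin conjugates, statins and phalloidin. KO livers 1 to 5 had 1229, 996, 1137, 572 and 356 CPM, against 736, 758, 1037, 831 and 1179 CPM in WT livers. KO livers spread more than WT livers, from below the lowest to above the highest of them. The means of 858 ± 377 CPM in KO and 908 ± 192 CPM in WT (SD, n = 5 each) gave a log2 fold change of -0.09 (SE 0.30, 95% interval -0.73 to 0.56, edgeR adjusted p = 0.903). KO livers 4 and 5, which hold its lowest 2 values, also hold the lowest Slco1a1 and Slco1a4 values of KO liver.

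The prostaglandin transporter Slco2a1 and the sulfated steroid carrier Slco2b1 were not called in either tissue. Slco2a1 was 17.7 to 22.8 CPM in KO kidney and 18.4 to 25.8 CPM in WT kidney (log2 fold change -0.17, SE 0.14, edgeR adjusted p = 0.484). It was 73.3 to 109 CPM in KO liver and 76.7 to 103 CPM in WT liver (0.01, SE 0.13, 95% interval -0.26 to 0.28, edgeR adjusted p = 0.977). The ranges overlapped in both tissues. Slco2b1 was 8.31 to 11.8 CPM in KO kidney and 8.06 to 19.6 CPM in WT kidney (-0.35, SE 0.24, edgeR adjusted p = 0.418). Its 19.6 CPM in WT kidney 3 was the highest of the kidneys, and without that library the log2 fold change was -0.12. It was 125 to 156 CPM in KO liver and 133 to 158 CPM in WT liver (-0.02, SE 0.10, 95% interval -0.25 to 0.20, edgeR adjusted p = 0.926). Slco4c1, known from human and rat as a basolateral carrier of cardiac glycosides and thyroid hormone in proximal tubule, was 7.43 to 18.3 CPM in KO kidney and 9.95 to 19.3 CPM in WT kidney (-0.20, SE 0.28, edgeR adjusted p = 0.685).

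In kidney 7 members had enough counts to be tested, and 1 was called higher and none lower, against 2.26% of 16500 genes called in either direction, 0.394% higher and 1.87% lower. The median log2 fold change of the 7 was 0.39 beside -0.07 for all genes. That median leaves out Slco4a1, an Slco gene outside the members that was also tested in kidney. Its log2 fold change was -0.75 (SE 0.49, edgeR adjusted p = 0.389). KO and WT ranges were separate for 2 of the 7, against 6.93% of all genes. In liver 6 members were tested and edgeR called none, against 6.02% of 14822 genes in either direction, 1.94% higher and 4.08% lower. DESeq2 and limma voom each called 1 member, beside 1408 and 1153 of the 14822 genes. The median was -0.01 beside -0.003 for all genes, and the KO and WT ranges were separate for 1 of the 6, against 6.85% of all genes. For the difference between tissues, edgeR called none of the 8 members, against 1.51% of 17606 genes. DESeq2 called 2 members, beside 611 of the 17606 genes.

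**Figure D2:**
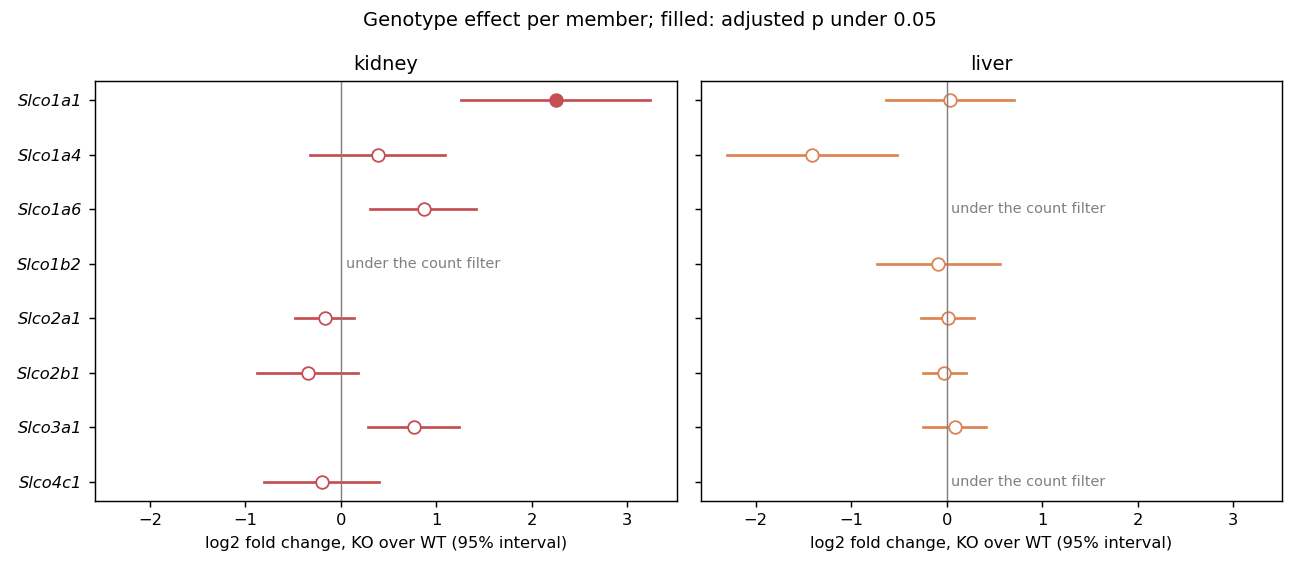
Points are log2 fold changes of KO over WT for each member in kidney and in liver, lines are 95% intervals, and a filled point has an adjusted p under 0.05. Slco1a1 in kidney, at 2.25, is the filled point, and the interval of Slco1a4 in liver, -2.3 to -0.52, lies below 0.

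Apart from Slco1a1, whose KO over WT log2 fold change in kidney was 2.25, the members differed far more between tissues than between genotypes. All 8 members differed between kidney and liver in WT mice, 3 higher and 5 lower in kidney, against 59.5% of all genes called, 32.6% higher and 26.8% lower. In KO mice 7 did, 3 higher and 4 lower, against 60.1% of all genes, 31.4% higher and 28.7% lower, and the exception was Slco1a1. Its kidney-over-liver log2 fold change was -0.37 in KO (SE 0.41, 95% interval -1.22 to 0.48, edgeR adjusted p = 0.45) and -2.60 in WT (SE 0.43, edgeR adjusted p = 1.84e-05). Slco3a1 was higher in kidney by 5.26 in KO and 4.56 in WT. Lower in kidney were Slco1a4, by -4.01 in KO and -5.85 in WT, Slco2b1, by -3.75 in KO and -3.45 in WT, and Slco2a1, by -2.14 in KO and -1.98 in WT.

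The 3 remaining members were close to absent from 1 tissue. Slco1a6 had 36733 counts over KO kidneys and 3 over KO livers, a kidney-over-liver ratio of 7630 (95% counting interval 2610 to 37000). In WT mice 21830 counts stood against 0, so kidney was at least 4580-fold higher, taking 3 counts over the group as the floor. Slco4c1 had 2335 counts over KO kidneys and 1 over KO livers, and 2911 over WT kidneys and 6 over WT livers (ratios 1450 and 305, with intervals of 261 to 57500 and 140 to 833). Slco1b2 ran the other way, with 12 counts over KO kidneys and 90854 over KO livers, and 4 over WT kidneys and 109656 over WT livers. Alb had 77 to 171 counts per KO kidney and 52 to 247 per WT kidney, and Slco1b2 had 18.5 counts per 1000 Alb counts in KO kidney and 5.67 in WT kidney, beside 15.2 in KO liver and 9.97 in WT liver. Whether liver RNA accounts for those kidney counts was not tested. All intervals and floors cover counting error only.

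Scaled by length, the order of levels was the same in KO and WT at the top of the liver list and differed in kidney. In KO kidney Slco1a1 (62.7 ± 21.2 FPKM) stood beside Slco1a6 (55.6 ± 13.4), whose range overlapped it, and Slco3a1 (24.0 ± 6.15) followed without overlap with Slco1a6. In WT kidney Slco1a6 (30.0 ± 10.8 FPKM) came first and lay above Slco3a1 (13.9 ± 3.26), and Slco1a1 (13.0 ± 7.53) overlapped both. Slco4c1, Slco2b1 and Slco2a1 lay between 1.54 and 2.74 FPKM on average in KO kidney and between 1.70 and 3.08 in WT kidney, neighbours overlapping, with Slco1a4 below them at 0.404 in KO and 0.303 in WT. In liver Slco1b2 (174 ± 76.5 FPKM in KO, 184 ± 39.0 in WT) stood above Slco1a1 (81.1 ± 31.0 in KO, 78.6 ± 25.5 in WT), and Slco2b1 followed (23.6 ± 2.38 in KO, 23.8 ± 1.66 in WT). The ranges of Slco1b2 and Slco1a1 overlapped in KO liver and not in WT liver. Slco1a4 (6.52 ± 4.51 in KO, 17.3 ± 5.02 in WT) overlapped Slco2a1 (6.78 ± 1.14 in KO, 6.69 ± 0.702 in WT) in KO liver, and overlapped Slco2b1 in WT liver. Slco3a1 was lowest of the tested members, at 0.627 in KO and 0.585 in WT.

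Summed over the 8 members, KO kidneys held 149 ± 34.8 FPKM (100.5 to 189) and WT kidneys 64.1 ± 19.2 (39.4 to 87.1), and the ranges did not overlap. KO livers held 293 ± 110.5 FPKM (137 to 388) and WT livers 311 ± 54.0 (268 to 379), and these did. Slco1a1 made up 41.2 ± 7.12% of the kidney sum in KO and 19.2 ± 8.15% in WT. Slco1a6 made up 37.7 ± 5.28% in KO and 46.4 ± 5.99% in WT, and Slco3a1 16.5 ± 3.98% in KO and 22.2 ± 3.97% in WT. In liver Slco1b2 gave 58.1 ± 4.97% in KO and 59.0 ± 4.18% in WT, and Slco1a4 gave 2.08 ± 0.85% in KO and 5.83 ± 2.37% in WT.

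**Figure D3:**
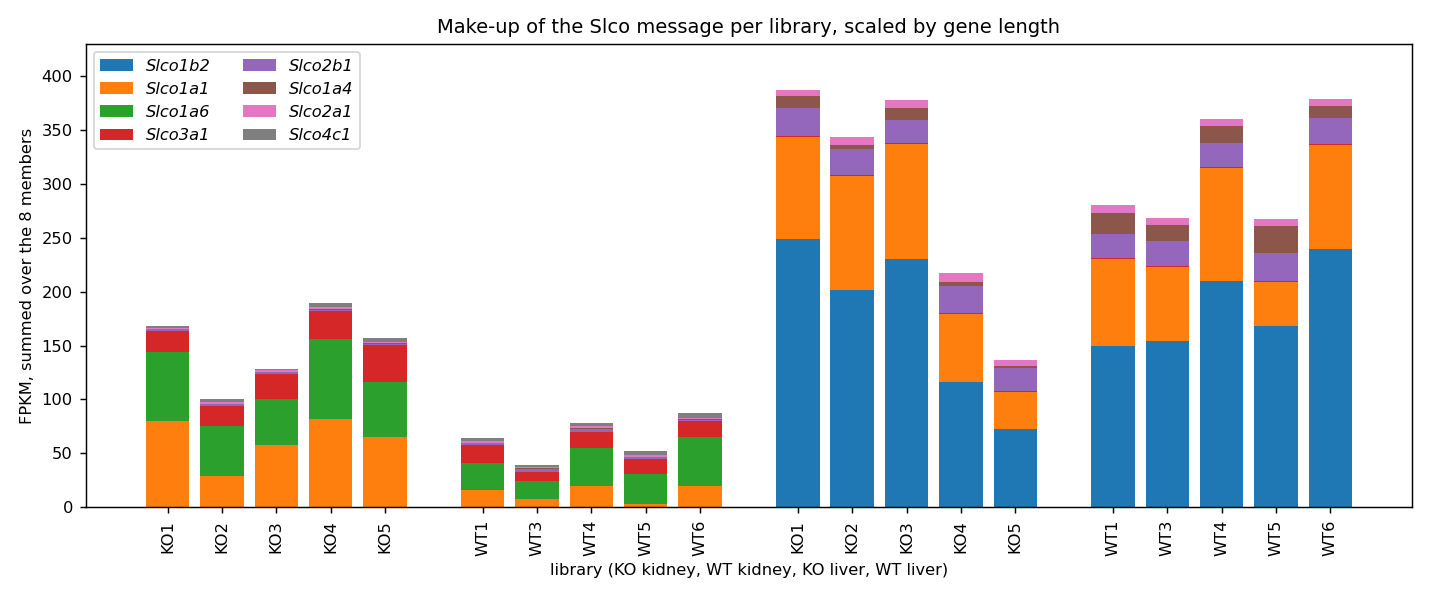
Bars give the FPKM sum of the 8 members in each library, stacked by member, with KO left of WT in each tissue. The KO kidney bars reach 100.5 to 189 FPKM and the WT kidney bars 39.4 to 87.1, and KO livers 4 and 5 are the shortest of the KO liver bars.

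Of the 7 other Slco rows, Slco6b1, Slco6c1 and Slco6d1 had no count in any library. Slco1a5, Slco1c1 and Slco5a1 had at most 8 counts in a library. Slco4a1, known from human as a thyroid hormone carrier, was measurable in kidney, at 4.34 to 18.8 CPM in KO and 6.75 to 37.8 CPM in WT (log2 fold change -0.75, SE 0.49, edgeR adjusted p = 0.389).

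Among the other carriers of anions, 1 of 5 tested in kidney was called, Slc22a6, the para-aminohippurate exchanger of the basolateral membrane. It averaged 1316 ± 221 CPM in KO and 597 ± 151 CPM in WT (SD, n = 5 each, log2 fold change 1.11, SE 0.24, edgeR adjusted p = 0.0332). Of 3 tested in liver, 1 was called, Slc10a1, the sodium-dependent bile acid carrier, at 553 ± 129 CPM in KO and 1123 ± 184 CPM in WT (-1.03, SE 0.19, edgeR adjusted p = 0.00638). Of 9 efflux pumps tested in each tissue, kidney had none called (edgeR). Liver had Abcb1b higher, at 4.46 ± 0.979 CPM in KO and 0.819 ± 0.241 in WT (2.42, edgeR adjusted p = 0.000137), and Abcb1a lower, at 2.08 ± 0.723 CPM in KO and 5.53 ± 2.54 in WT (-1.42, edgeR adjusted p = 0.0185). Both encode P-glycoproteins. The median log2 fold change was 0.27 in kidney and 0.60 in liver for the other carriers, and for the pumps it was 0.02 in kidney and -0.24 in liver.

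Of 17 regulators and scaffold genes of these transporters, kidney had 1 lower, the prolactin receptor Prlr (3.16 ± 2.50 CPM in KO and 22.0 on average in WT with an SD of similar size; log2 fold change -2.82, edgeR adjusted p = 0.0338). In liver 2 were lower, Nfe2l2, the oxidative stress factor (-0.72, edgeR adjusted p = 0.00516), and Prlr (-0.70, edgeR adjusted p = 0.0459). Of all genes, 1.87% were called lower in kidney and 4.08% in liver.

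Genes of sex-biased expression moved in the same libraries. Over all genes, edgeR called 0.394% higher and 1.87% lower in kidney, and 1.94% higher and 4.08% lower in liver. The gene lists were chosen with earlier results of these data known. Of 7 genes known to be higher in male kidney, 3 were higher in KO kidney and none lower. They were Cyp4a12a, an arachidonate hydroxylase (log2 fold change 3.97), Odc1, the polyamine synthesis enzyme (1.88), and Cyp2j13 (1.56). Their list summed to 33020 to 47160 CPM in KO kidney and 14610 to 28270 CPM in WT kidney. In liver 4 of 10 male-biased genes were higher, led by Cyp7b1, an oxysterol hydroxylase, at 979 ± 153 CPM in KO and 58.7 ± 27.2 in WT (4.05). Of 11 female-biased liver genes, 5 passed the count filter there, and those named here passed it through their WT levels, so the direction of the genes tested is not read as a result. Cyp2a4 averaged 0.668 CPM in KO liver and 328 in WT liver, Cyp2b9 0.192 in KO and 64.3 in WT, and Hao2 0.0597 in KO and 15.8 in WT. In kidney Cyp2a4 was the 1 of 5 tested that was called, and it was higher (2.39, edgeR adjusted p = 0.00337). The 4 female-biased kidney genes gave 1 lower in kidney, Prlr, and 2 lower of 3 tested in liver, Cyp4a14 (-4.26) and Prlr. The whole female-biased liver list summed to 1.54 to 2.05 CPM in KO liver and 190 to 1307 CPM in WT liver, and 3 of its genes were at 0 in KO liver. Their part in the Slco values was not tested. WT mouse 5 had the lowest Slco1a1 of WT in both tissues, the highest Slco1a4 of any liver, and the highest female-biased and lowest male-biased liver sums.

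Markers of cell types also differed between the kidneys. The 15 proximal tubule markers summed to 16670 to 20870 CPM in KO kidney and 12060 to 15230 CPM in WT kidney, without overlap, and 1 of the 15, Slc22a6, was called. Set against that sum, Slco1a1 stood at 21.4, 9.25, 16.9, 23.5 and 16.5 per 1000 in KO kidneys and 5.85, 3.16, 7.22, 1.0 and 6.68 per 1000 in WT kidneys, and the groups did not overlap. Fibroblast markers were lower, 5 of 9 in KO kidney and 3 of 9 in KO liver, with sums of 65.1 to 123 CPM in KO kidney and 187 to 549 CPM in WT kidney. Over all genes, 1.87% were called lower in kidney and 4.08% in liver. The median log2 fold change was 0.33 for the proximal tubule list and -1.36 for the fibroblast list in kidney. It was -0.75 for the endothelial and the podocyte list, -0.79 for 3 sinusoidal endothelial genes, -0.54 for macrophages, -0.10 for cholangiocytes and -0.07 for the distal nephron, beside -0.07 for all genes. Endothelial markers summed to 160 to 318 CPM in KO kidney and 317 to 420 CPM in WT kidney. Of 10 endothelial markers 1 was lower in each tissue, Cdh5 (-1.08 in kidney, -0.90 in liver). No distal nephron, podocyte, macrophage, sinusoidal endothelial or cholangiocyte marker was called by edgeR in kidney. In liver 1 of 10 hepatocyte markers was lower, Alb (-0.75, edgeR adjusted p = 0.0435), and the hepatocyte list summed to 90900 to 124700 CPM in KO and 129800 to 174500 CPM in WT. Alb alone averaged 55740 CPM in KO and 93040 CPM in WT, so it makes up much of that sum. The median log2 fold change of the hepatocyte list in liver was -0.11. One more marker each was called in liver for pericentral hepatocytes (Oat, 0.92), macrophages (Adgre1, -1.26) and cholangiocytes (Sox9, 1.20), and none for periportal hepatocytes or sinusoidal endothelium. Of 8 proximal tubule markers tested in liver, Lrp2 was called higher (2.41, edgeR adjusted p = 0.0144). Its level there was low, at 1.54 CPM on average in KO and 0.275 in WT. The part of these markers in the Slco values was not tested. Fewer cells of a type and less RNA per cell cannot be told apart in whole tissue.

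**Figure D4:**
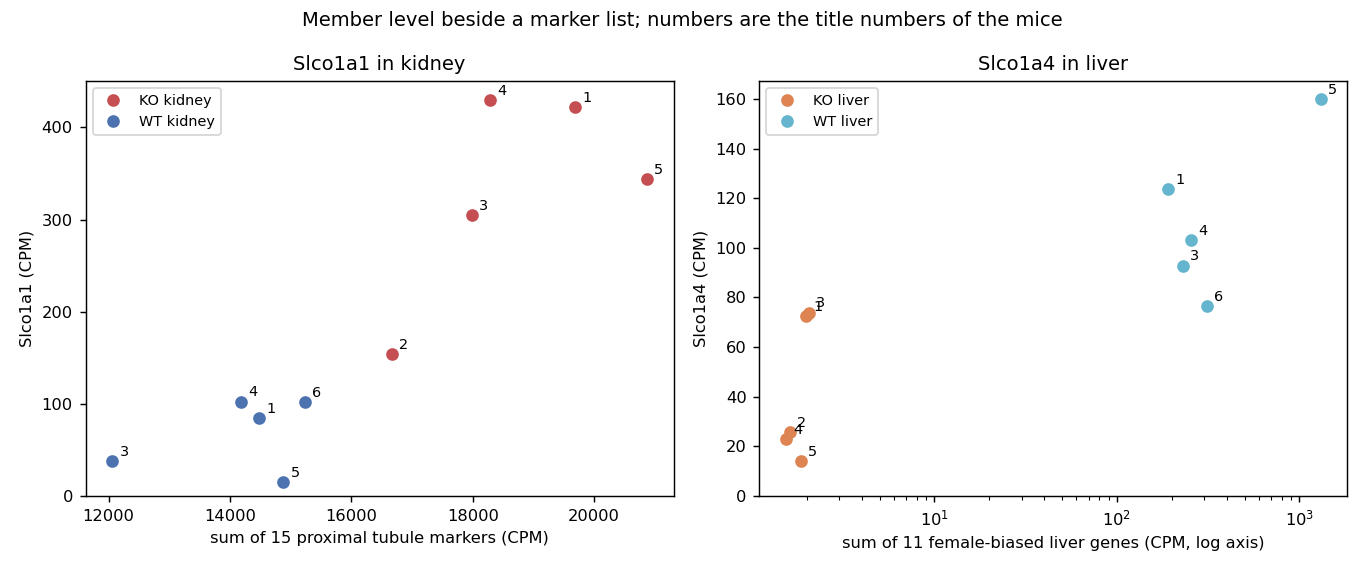
The left panel plots Slco1a1 against the summed proximal tubule markers in each kidney, and the right panel Slco1a4 against the summed female-biased liver genes (log axis) in each liver, all in CPM, with the mouse numbers beside the points. KO kidneys lie above and to the right of WT kidneys, and KO livers, at 1.54 to 2.05 CPM on the horizontal axis, lie below and to the left of WT livers.

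Genes whose pattern over the 20 libraries lay nearest to each member were sought among 12879 genes, as the root mean square difference of centred log2 (CPM + 0.5), where 0 is an identical pattern. For Slco1a1 nothing came close: the nearest was Timd2 at 0.788, beside a spread of 1.38 for Slco1a1 itself. Slco1a6 lay at 0.257 from Car4, the membrane carbonic anhydrase, and at 0.272 from Slc1a1, a glutamate carrier. Slco1b2 lay at 0.239 from Ugt2b1, a glucuronosyl transferase, and Slco1a4 at 0.529 from Cyp2c55, which averaged 7.97 CPM in KO liver and 34.1 CPM in WT liver. Slco2a1 was nearest to Ece1 (0.162), Slco2b1 to Tle1 (0.268), Slco3a1 to Gm15217 (0.219) and Slco4c1 to Slc19a3, a thiamine carrier (0.281).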

How the data were processed

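Total RNA (3 ug) was extracted with Trizol and made into libraries with the NEBNext Ultra kit, per the labels' protocols. HISAT2 2.0.5, StringTie, DESeq2 1.16.1 and mm10 are named without role or order, per the submitters' processing notes; the counting tool and use of strand are not given in the sources used here. The deposited count table holds whole-number counts per gene for 20 libraries, and a second deposited table holds log2 FPKM of 15454 genes, used as an alternative; it lists 5 members. Separate fits of the 10 libraries of each tissue used edgeR 4.0.16 (R 4.3.3; filterByExpr with a minimum count of 10, TMM, quasi-likelihood F test, Benjamini and Hochberg over all genes tested). Tissue contrasts and the difference between tissues came from 1 fit of all 20 libraries. That fit held 1 mean per group and no term for the mouse, so its p values leave the pairing of organs out. A block for the mouse was used only as an alternative. The members and the 19 gene lists (164 symbols, 162 in the table) were chosen with earlier results of these data known. Named genes are the members, Nr1h3, up to 3 called genes of each list with the smallest p and the nearest genes by pattern; the Slco genes outside the members are named as such. A gene of the regulator list that the rule names is not reported here. Promoters are from RefSeq GRCm38.p6 and transcripts from GENCODE M21, aligned with Biopython 1.88 in Python 3.11.15. Alternatives used limma 3.58.1, DESeq2 1.42.0, other scalings, filters, blocks and left-out libraries. Nothing in the labels says that mice came from separate litters, so p values measure the spread between these mice. That a kidney and a liver with the same label and number came from 1 mouse is an assumption the labels leave unstated. Deviations from the group means of such pairs correlated with r between -0.188 and 0.394 across genes. The edgeR fits for kidney, liver and the difference between tissues were also run on simulated counts of unpaired libraries. The kidney against liver contrasts were not simulated, and no result above rests on that run.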

Additional observations from a re-analysis of the deposited data

How the results depend on the processing

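The count of members called in kidney (1) was 3 with DESeq2, with limma voom and with all 20 libraries in 1 fit, 2 with the title number as replicate block, and 0 to 2 when 1 library was left out. The additional calls were Slco1a6 and Slco3a1. Over all genes, the main kidney fit called 373 of 16500. DESeq2 called 1151, limma voom 2151 and the title number block 902 of the same 16500 genes. The fit of all 20 libraries called 948 of 17606 genes, and fits without 1 library called 99 to 921. In liver (0) the count of members called was 1, Slco1a4, with DESeq2, no TMM, no filter, limma voom, the log2 FPKM table and all 20 libraries, and 0 to 1 when 1 library was left out (1 without KO liver 1 or KO liver 3). Over all genes, the main liver fit called 893 of 14822. Those settings called 1408, 982, 1101, 1153, 615 and 773, in that order, of 14822 to 29940 genes tested. Without KO liver 1 or KO liver 3, 798 and 913 genes were called. For the difference between tissues (0) the count of members called was 2 with DESeq2 and with no filter, 1 with limma voom and with the mouse as replicate block, and 0 to 1 when 1 library was left out. Over all genes, the main fit called 265 for this difference. DESeq2 called 611, no filter 327, limma voom 681 and the mouse block 181, and fits without 1 library called 165 to 487. The kidney against liver counts were 5 in WT and 4 in KO in the log2 FPKM table, which lists 5 members.

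Slco1a1 in kidney was called in all 11 other settings, with a log2 fold change of 2.12 to 2.91, and in 6 of 10 fits without 1 library. Signs turned for values near 0. Without TMM, Slco1a1 in liver was -0.053, Slco2a1 in liver -0.064 and Slco1a1 in kidney against liver of KO 0.24; there the median of all genes moved to 0.63, so the last value still lay below it, and in WT the median moved to 0.71. With limma voom Slco1b2 in liver was 0.019 and Slco2b1 0.032; without KO livers 4 and 5 they were 0.31 and 0.020. Under the block by title number Slco1a1 in liver was -0.023 and Slco2a1 -0.10. Without 1 library, the liver values ran from -0.13 to 0.23 for Slco1a1, -0.25 to 0.11 for Slco1b2, -0.056 to 0.087 for Slco2a1 and -0.059 to 0.021 for Slco2b1. Other settings gave 379 member values and fits without 1 library gave 610, with the kidney against liver contrasts included. Of these 989 values, 936 kept direction and side of the threshold. The cause of these changes was not tested.

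Equal title numbers of different genotype were not shown to pair mice: deviations of such pairs correlated with r of 0.04 to 0.173 in kidney and -0.036 to 0.02 in liver, and 2 of 8 kidneys and 0 of 8 livers correlated best with their own number. The mouse block changed no call other than that of Slco1a1. Depth limits Slco1b2 in kidney and Slco1a6 and Slco4c1 in liver, which had at most 6 counts per library.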
